A study of Mus musculus with 4 samples.

Results

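Tuft cell and prostanoid synthesis genes were followed across mouse colon adenoma organoids that differed in the Gata6 genotype. The set holds 10 genes: Pou2f3, Trpm5, Dclk1, Avil, Hpgds, Alox5ap, Ptgs1, Ptgs2, Ptges and Hpgd. They were selected by gene symbol with earlier results on the same 4 arrays known, among them the log2 differences between the genotypes. Those differences are therefore given here as a description, without a p-value for any of the 10 genes. Counts of these genes past a threshold are given beside those over all genes, and nothing is read from them. The platform annotation paired 9 of the 10 genes with 22 probe sets, out of 45037 probe sets without controls. Ptgs1, the constitutive cyclooxygenase, was paired with none and is not analysed here. A filter on dim signal, at a mean of 4.45 log2 units over the 4 arrays, was passed by 7 of the 22 probe sets and by 4 of the 10 genes, against 11874 of 17097 genes on the whole array.

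The study hybridised RNA from 3D cultures of adenoma epithelium on a C57BL/6 background to 4 Affymetrix arrays. All cultures carried VillinCreERT2, a tamoxifen-inducible Cre recombinase under the promoter of villin that is active in intestinal epithelium, and floxed Apc alleles (Apcfl/fl). The 2 arrays of the Apc null group had intact Gata6 (Gata6+/+), and the 2 of the Gata6 null/Apc null group also had floxed Gata6 (Gata6fl/fl). Loss of Apc, shared by both groups, activates Wnt signalling, and GATA6 is a zinc finger transcription factor of the gut epithelium. Cultures grew for 7 days, with EGF at 50 ng/ml among the supplements. The labels name a batch A and a batch B, and either batch held 1 array of either group. The series title concerns GATA6, stem cell self-renewal and repression of BMP genes, and the genes described here lie outside that question.

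Tuft cells are rare chemosensory cells of the gut lining. Their fate depends on the POU domain transcription factor Pou2f3, they signal through a taste-like cascade that ends in the cation channel Trpm5, and in the mouse intestine they are commonly marked by the kinase Dclk1. They are also an epithelial source of lipid mediators. In prostanoid synthesis, phospholipases free arachidonic acid, the cyclooxygenases Ptgs1 and Ptgs2 turn it into a common intermediate, and terminal synthases such as Hpgds and Ptges make prostaglandin D or prostaglandin E from it, which Hpgd then inactivates. Alox5ap presents arachidonic acid to the lipoxygenase that starts leukotriene synthesis.

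The promoters of Hpgds and Avil are shown because these genes had the large genotype differences of the set and because tuft cell fate is tied to a POU factor, whose family binds the octamer ATGCAAAT. Both are from RefSeq (GRCm38.p6), 300 bases from 250 before to 50 after a start site, written 5′ to 3′ on the strand of the gene. The Hpgds promoter lies at chr6:65144681-65144980 on the minus strand and that of Avil at chr10:127000459-127000758 on the plus strand. Capitals mark the octamer in Hpgds and a GATA core in Avil.
Hpgds: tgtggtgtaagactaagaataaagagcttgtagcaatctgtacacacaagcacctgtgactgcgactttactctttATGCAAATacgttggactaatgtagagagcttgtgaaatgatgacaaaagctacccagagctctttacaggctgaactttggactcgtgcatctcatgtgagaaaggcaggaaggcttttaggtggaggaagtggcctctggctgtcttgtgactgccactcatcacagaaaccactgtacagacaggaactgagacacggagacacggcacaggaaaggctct
Avil: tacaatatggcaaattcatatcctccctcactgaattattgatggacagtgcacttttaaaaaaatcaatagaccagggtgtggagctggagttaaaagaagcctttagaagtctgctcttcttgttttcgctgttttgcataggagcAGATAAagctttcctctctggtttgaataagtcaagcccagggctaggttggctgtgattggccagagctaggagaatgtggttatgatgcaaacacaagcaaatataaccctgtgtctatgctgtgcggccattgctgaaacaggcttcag

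Promoters of 8 of the 10 genes were in the RefSeq table. On either strand, the octamer ATGCAAAT was found in Hpgds, from -174 to -167 relative to the start site, and in 1.74% of all 32851 promoters of that length. A GATA core, searched as AGATAA and also as AGATAG, and with another first base as TGATAA and also as TGATAG, was found in Avil from -102 to -97 and in 1 of the 2 Dclk1 promoters, and in 29.8% of all promoters. The TCF/LEF core CTTTGA was found in the other Dclk1 promoter and in 16% of all promoters. The promoters of Trpm5, Ptgs1, Ptgs2, Ptges and Hpgd held none of these letters. A match describes letters and was not set against any binding data.

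The label of tuft cell genes rests on Hpgds and Avil here, which were chosen with their differences known. The defining markers were too dim to be read for or against it. Of 21 genes tested from a wider tuft cell list, 11 had a positive genotype difference and 10 a negative one, with a median of 0.03. Hpgds and Avil read several-fold higher in the Gata6 null/Apc null group, while Pou2f3, Trpm5, Dclk1 and Alox5ap were dim in both groups. Ptges followed the batch rather than the genotype, and Ptgs2 was dim. No difference is given for the set as a whole, since its members were chosen with these values known and the 4 genes that passed the filter cannot stand for all 10.

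Hpgds encodes the haematopoietic prostaglandin D synthase, a terminal enzyme of prostanoid synthesis found in tuft cells and in mast cells. Its single probe set (1421492_PM_at) read 4.85 in batch A and 4.90 in batch B of the Apc null group, against 6.92 and 7.85 in the Gata6 null/Apc null group. Both Gata6 null/Apc null arrays were above both Apc null arrays, and the Apc null pair lay close together near the filter level. The group means were 4.88 ± 0.04 and 7.39 ± 0.65 log2 units (SD, n = 2 arrays each). The difference was 2.51 log2 units (SE 0.36), or 5.69-fold, with 2.07 from the batch A arrays and 2.95 from batch B. Hpgds ranked 75th among the 11874 genes by the size of its increase. Because the Apc null values lay near the dim end of the scale, where RMA compresses differences, the fold depends on that floor.

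Avil encodes advillin, an actin-binding protein of the villin and gelsolin family that is enriched in tuft cells and sensory neurons. Its single probe set (1419148_PM_at) read 6.25 in batch A and 7.55 in batch B of the Apc null group, against 9.49 and 9.64 in the Gata6 null/Apc null group. The groups did not overlap, and the lowest value of the 4 was that of Apc null A. The means were 6.90 ± 0.92 and 9.57 ± 0.10 log2 units (SD, n = 2 arrays each). The difference was 2.67 log2 units (SE 0.47), or 6.36-fold, with 3.24 from the batch A arrays and 2.10 from batch B, and it ranked 66th by increase. In Avil the spread lay in the Apc null arrays, which differed by 1.29 between batches, and in Hpgds it lay in the Gata6 null/Apc null arrays, which differed by 0.92. Vil1, the related brush border villin, differed by -0.19 (SE 0.15, limma adjusted p = 1.00).

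**Figure D1:**
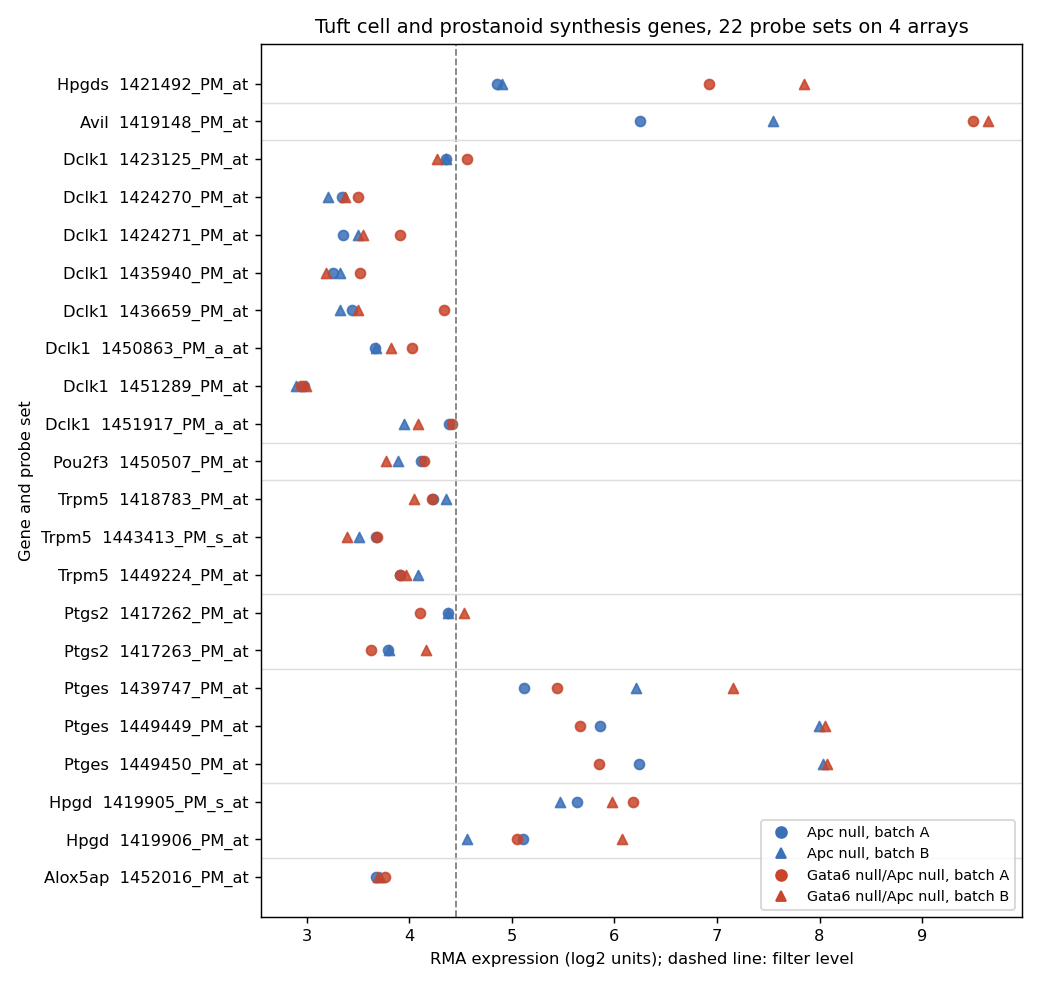
RMA expression in log2 units (x axis) of the 22 probe sets of 9 genes (rows), with 1 point per array, colour for genotype, circles for batch A and triangles for batch B. Hpgds and Avil separate by genotype, Ptges separates by batch, and the 15 probe sets of Dclk1, Pou2f3, Trpm5, Ptgs2 and Alox5ap have means below the filter level of 4.45 (dashed line).

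The markers that define the tuft cell fate had no differences of that size, and each of their probe sets had a mean below the filter level. Pou2f3, at its single probe set (1450507_PM_at), read 4.12 and 3.89 for Apc null A and B and 4.15 and 3.77 in those of the Gata6 null/Apc null group. The groups overlapped, with both batch A arrays above both batch B arrays. The brightest Trpm5 probe set (1418783_PM_at) read 4.23 and 4.36 against 4.22 and 4.04, so that the groups did not overlap but lay side by side, the Gata6 null/Apc null arrays lower. Over all 3 Trpm5 probe sets the 4 arrays ranged from 3.39 to 4.36, and the genotype differences ran from -0.16 to -0.05.

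Dclk1 was measured by 8 probe sets, which ranged from 2.89 to 4.56 over the 4 arrays. The brightest (1423125_PM_at) read 4.36 and 4.35 in the Apc null arrays against 4.56 and 4.26 in the Gata6 null/Apc null arrays of batches A and B, and the groups overlapped. The genotype differences of the 8 probe sets ran from 0.04 to 0.54, and in 4 of them both Gata6 null/Apc null arrays were above both Apc null arrays. Over all 45037 probe sets this pattern was found in 12.5%. The 8 probe sets measure 1 gene on the same 4 arrays, so nothing is read from their count. In 7 of the 8 Gata6 null/Apc null A gave the highest of the 4 values. The widest case, 1436659_PM_at, read 3.44 and 3.32 against 4.34 and 3.50, all below the filter level. Values this low are compressed by the processing, and no detection calls were available to say whether the transcript was present.

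Alox5ap, the 5-lipoxygenase activating protein, read 3.67 and 3.71 in the Apc null arrays and 3.76 and 3.69 in the Gata6 null/Apc null arrays at its single probe set (1452016_PM_at). The range over the 4 arrays was 0.08 log2 units.

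Of the prostanoid enzymes in the set, Ptgs2, the inducible cyclooxygenase whose product drives polyp growth in Apc mutant mice, was dim at both of its probe sets. The brighter (1417262_PM_at) read 4.38 and 4.37 in the Apc null arrays (A, then B), against 4.10 and 4.54 in the Gata6 null/Apc null arrays. The other (1417263_PM_at) read 3.80 and 3.80 against 3.62 and 4.16. The Apc null arrays lay between the Gata6 null/Apc null arrays at both probe sets, so the groups overlapped.

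Ptges, the inducible prostaglandin E synthase that acts after the cyclooxygenases, was well above the filter and differed between batches. Its brightest probe set (1449450_PM_at) read 6.24 (Apc null) and 5.85 (Gata6 null/Apc null) on the batch A arrays, against 8.03 and 8.08 in batch B. Both batch B arrays were above both batch A arrays, while the genotypes overlapped and differed by -0.17 (SE 0.95). The other probe sets repeated the order of the batches. One (1449449_PM_at) read 5.86 and 5.66 in batch A against 8.00 and 8.05 in batch B, and the other (1439747_PM_at) read 5.12 and 5.44 against 6.21 and 7.16.

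The batch difference was not among the values that chose the genes, but earlier results on the batches were known as well, so its p-value is not free of selection. It was 2.01 log2 units for Ptges (SE 0.19, limma adjusted p = 0.0115, batch B higher in 2 of 2 genotypes), or 4.03-fold, in a fit with genotype and batch as terms. Of all 11874 genes 16.6% were called in this contrast in either direction, and of the 4 listed genes that passed the filter 1 was, Ptges. A batch difference of this size or larger was found in 45 of the 11874 genes. Without genotype as a term limma called 0 of the 11874 genes, with 2432 at an unadjusted p under 0.05, and the adjusted p of Ptges was 0.127, the highest over its alternatives, which reached down to 2.62e-07 with arrays centred on their medians. Hpgds differed between batches by 0.49 (SE 0.25, adjusted p = 0.239), Avil by 0.72 (SE 0.27, adjusted p = 0.123, and 0.0237 to 0.805 over the alternatives, the lowest with median centring) and Hpgd by -0.18 (SE 0.18, adjusted p = 0.531).

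Hpgd, which encodes 15-hydroxyprostaglandin dehydrogenase, the enzyme that inactivates prostaglandins and is often lost in colon tumours, was measured by a pair of probe sets that did not give the same picture. The brighter (1419905_PM_s_at), which can match shared sequence, read 5.63 and 5.47 in the Apc null arrays (A, then B) against 6.18 and 5.98 in the Gata6 null/Apc null arrays. The groups did not overlap there, with a difference of 0.53 (SE 0.21) that came to 0.55 for the batch A arrays and 0.51 for batch B. The other (1419906_PM_at) read 5.11 and 4.57 against 5.05 and 6.07, and the groups overlapped. Its difference was 0.72, with -0.06 for the batch A arrays and 1.51 for batch B.

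**Figure D2:**
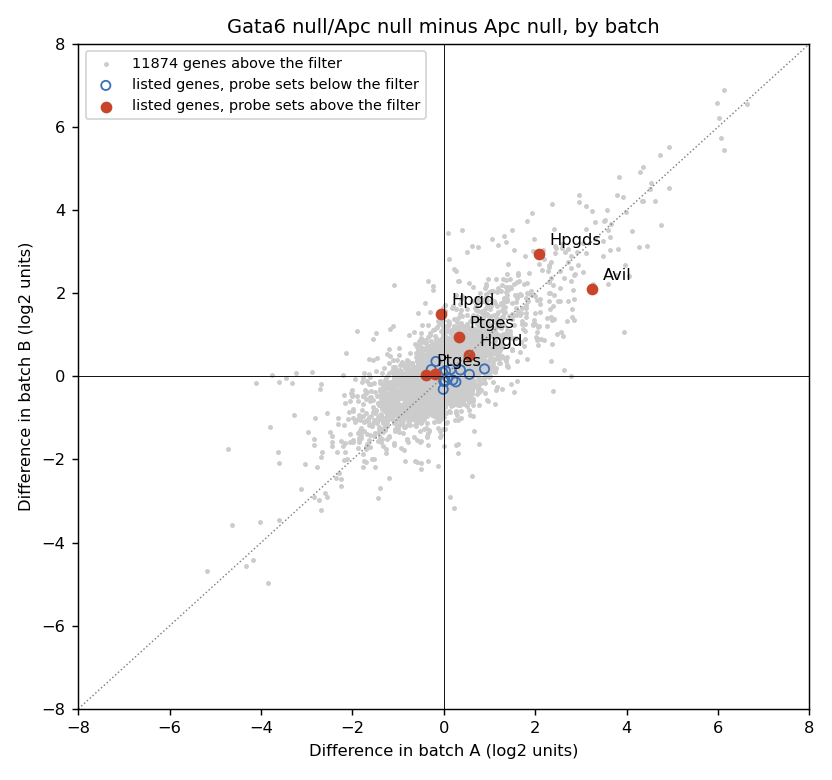
Genotype difference in batch A (x axis) against batch B (y axis), both in log2 units, for 11874 genes above the filter (grey) and for the 22 probe sets of the listed genes. Hpgds (2.07 and 2.95) and Avil (3.24 and 2.10) lie away from 0 in both batches, and of the open circles of the dim probe sets the farthest out along x is a Dclk1 probe set at 0.89.

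Among the 22 probe sets, both Gata6 null/Apc null arrays were above both Apc null arrays in 7, and below them in 1. Over all 45037 probe sets these patterns were found in 12.5% and 16.1%. Of the 7 probe sets, 4 were dim probe sets of Dclk1, which measure 1 gene. In the fit across genes, which used limma with a Benjamini-Hochberg threshold of 0.05, 0 of the 4 listed genes that passed the filter were called by genotype. In that fit 0.522% of all genes were called higher and 0.126% lower in the Gata6 null/Apc null group. At an unadjusted p under 0.05 there were 2 listed genes and 946 of all genes (7.97%). With the batch as a replicate block, which pairs the arrays of a batch, the listed genes called were 2 and both were higher, against 3.91% of all genes higher and 2.97% lower. These differences were known when the genes were chosen, so nothing is read from the counts.

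The profile of Avil, which had the widest range over the 4 arrays among the listed genes, at 3.39 log2 units, was compared with all other genes by the Euclidean distance between values centred on their mean over the 4 arrays. The nearest were Zfp503 (0.37), Rasl11b (0.42), Nuak1 (0.47), Shisa2 (0.48) and Enah (0.51). Zfp503, for example, read 5.56 and 6.61 in the Apc null arrays (A, then B) and 8.41 and 8.46 in the Gata6 null/Apc null arrays. Of the 4 listed genes above the filter, Hpgds was the nearest to Avil, at 1.05. Both were chosen with their genotype differences known, so nothing is read from this distance.

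The wider tuft cell list of 48 genes, which includes 7 of the 10 genes, gave a similar picture. Of the 43 genes with a probe set, 22 (51.2%) were below the filter, against 30.5% of all genes. At the brightest probe set of each gene, these 22 ranged from 3.05 to 4.64 on the 4 arrays. They included the transcription factors Gfi1b and Spib, the cytokine gene Il25, the succinate receptor gene Sucnr1 and the leukotriene C4 synthase gene Ltc4s. The largest genotype difference among them in either direction, again at the brightest probe set of each gene, was 0.43, at Gprc5c. A dimmer Dclk1 probe set (1436659_PM_at) differed by 0.54. In bulk RNA a smaller number of cells of a type and less RNA in each of them cannot be told apart.

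Of the 21 tuft list genes tested, 1 was higher by genotype and 0 were lower, against 0.522% and 0.126% of all genes. The median difference was 0.03 against -0.03 over all genes. The called gene was Nrep, which encodes a small neuronal regeneration related protein. It read 7.88 and 7.74 in the Apc null arrays (A, then B) against 10.19 and 10.38 in the Gata6 null/Apc null arrays. Nrep rose by 2.47 (SE 0.18, limma adjusted p = 0.0239, higher in 2 of 2 batches). The call was lost without either of 2 arrays, with an adjusted p of 0.0536 when Apc null A was left out and 0.0737 when Gata6 null/Apc null B was left out, and over all alternatives it ran from 4.67e-04 to 0.0737. With the batch as a block 4 genes of the list were called, all higher, against 3.91% of all genes higher. Among the 4, Nrep and Nebl lie outside the 10 genes. Nebl, an actin-binding nebulin relative chosen after its values were seen, read 8.66 and 8.29 against 10.59 and 10.25, 1.95 apart (SE 0.22, adjusted p = 0.0555, but 4.35e-04 in the blocked fit and up to 0.128 over the alternatives). Of the 4 called genes 2 belong to the set chosen with these results known, and the list was also drawn up with earlier results known. The count is therefore no separate evidence, and the p-values of Nrep and Nebl are not free of selection.

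Other tuft list genes above the filter did not pass the test, and 5 are given here, picked with their values known. Ptpn6, a phosphatase also found in blood cells, read 6.60 and 7.13 in the Apc null arrays against 7.25 and 7.71 in the Gata6 null/Apc null arrays, a difference of 0.62 (SE 0.32, limma adjusted p = 0.856). Espn, an actin bundler of microvilli, differed by 0.49 (SE 0.60, adjusted p = 1.00). Cd24a, a surface glycoprotein of many crypt cells, had values of 11.40 to 11.50 and a difference of -9.32e-04 (SE 0.09, adjusted p = 1.00). Gng13, a G protein subunit of taste signalling, differed by -0.42 (SE 0.34, adjusted p = 1.00) and Plcb2, the phospholipase of that cascade, by -0.25 (SE 0.16, adjusted p = 0.976).

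Around the listed enzymes, few other genes of prostanoid metabolism had large genotype differences. None of the 6 phospholipases, 9 synthases, 7 breakdown and transport genes and 3 prostanoid receptors tested passed the threshold in either direction. Their median differences were -0.01, -0.17, -0.16 and -0.12. The numbers at an unadjusted limma p under 0.05 were 1, 1, 0 and 0, against 7.97% of all genes. Of the 9 synthases 2 had a positive difference, Hpgds and Ptgds (0.29), and 7 a negative one.

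The phospholipase gene Pla2g5 read 5.49 and 7.24 in the Apc null arrays (A, then B) against 4.10 and 4.57 in the Gata6 null/Apc null arrays. The groups did not overlap, and the difference was -2.03 (SE 0.61, limma adjusted p = 0.417, but 0.0177 in the blocked fit and up to 0.680 over the alternatives). Pla2g5 passed the filter through the Apc null group, and the size of its difference depends on the floor of the array. With Apc null A left out the difference was -2.91, and with Apc null B left out it was -1.16. Pla2g4a, the cytosolic phospholipase that frees arachidonic acid, differed by -0.66 (SE 0.37, adjusted p = 0.901), and by -0.22 to -1.11 with an array left out. Among synthases Prxl2b, a prostaglandin F synthase, differed by -0.56 (SE 0.33, adjusted p = 0.942), and by -0.18 to -0.94 with an array left out. Ptgr1, a reductase that breaks down prostaglandins and leukotrienes, differed by -0.82 (SE 0.41, adjusted p = 0.833, but 0.0403 in the blocked fit and up to 1.00 over the alternatives). Its difference was -0.35 without Gata6 null/Apc null A and -1.29 without Gata6 null/Apc null B. Of the receptors, Ptger4, for prostaglandin E, differed by -0.48 (SE 0.20, adjusted p = 0.686) and Ptgdr2, for prostaglandin D, by -0.12 (SE 0.14, adjusted p = 1.00). Ptgdr2 was close to the filter, at 4.49 to 4.70, and Ptgdr, the other prostaglandin D receptor gene, was below it at 4.02 to 4.25.

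**Figure D3:**
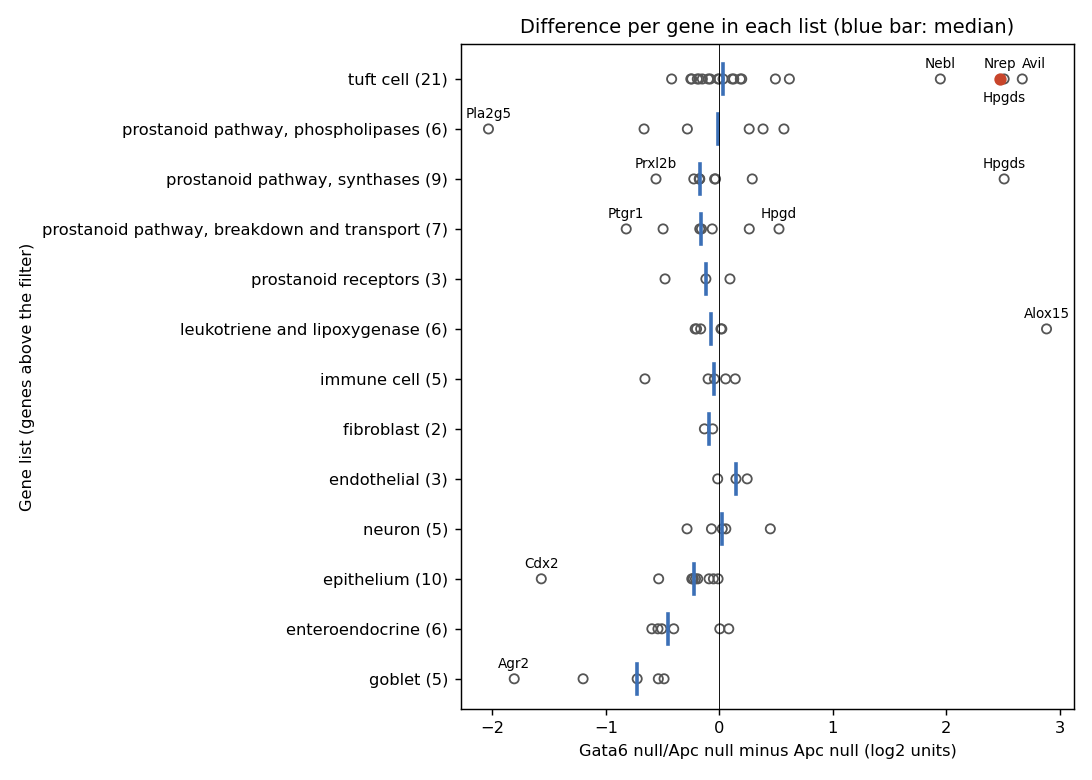
Genotype difference in log2 units (x axis) of each gene above the filter in 13 gene lists (rows, number of genes in brackets). Filled points passed the limma threshold, open points did not, and blue bars are list medians. Avil, Hpgds, Nrep and Nebl stand to the right of the tuft list median of 0.03, and Alox15 stands alone in the lipoxygenase list.

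In the leukotriene and lipoxygenase list, 0 of 6 genes tested passed by genotype, and the median was -0.08. At an unadjusted limma p under 0.05 there was 1 gene, against 7.97% of all genes. That gene was Alox15, a lipoxygenase that oxidises arachidonic and linoleic acid. It read 3.98 and 4.29 in the Apc null arrays (A, then B), below the filter level, against 6.57 and 7.46 in the Gata6 null/Apc null arrays. The difference was 2.88 (SE 0.35, adjusted p = 0.0607, but 0.00138 in the blocked fit and up to 0.182 over the alternatives), and its size depends on the floor of the array. Alox15 passed the filter through the group in which it was bright. Ltb4r1, a leukotriene B4 receptor, had the next largest difference, -0.21 (SE 0.20, adjusted p = 1.00), and -0.02 to -0.41 with an array left out. Alox5 and Ltc4s, which work with Alox5ap, were below the filter, Ltc4s at 3.79 to 4.25.

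Ptges was not the single gene of these lists that differed between batches. Of 50 genes tested from the tuft, prostanoid and leukotriene lists, 9 passed in the batch contrast, 8 higher and 1 lower in batch B. The genes, chosen after their values were seen, were Ptges, Il17rb, Alox12b, Espn, Cbr3, Cbr1, Ptgr1, Ptgr2 and, in the lower direction, Ptger1. Il17rb, the receptor subunit for the tuft cell cytokine interleukin 25, read 4.81 and 5.05 in batch A against 6.57 and 6.73 in batch B, with the Apc null array first in each pair, and rose by 1.72 (SE 0.18, limma adjusted p = 0.0115). The carbonyl reductases Cbr3 and Cbr1, which can convert prostaglandins, rose by 1.05 and 0.88, and the prostaglandin reductases Ptgr1 and Ptgr2 by 0.75 and 0.67, with adjusted p-values of 0.0150 to 0.0329. Ptger1, a receptor for prostaglandin E, fell by 1.08 (SE 0.20, adjusted p = 0.0239). The share of 9 in 50 lies near the 16.6% of all genes.

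**Figure D4:**
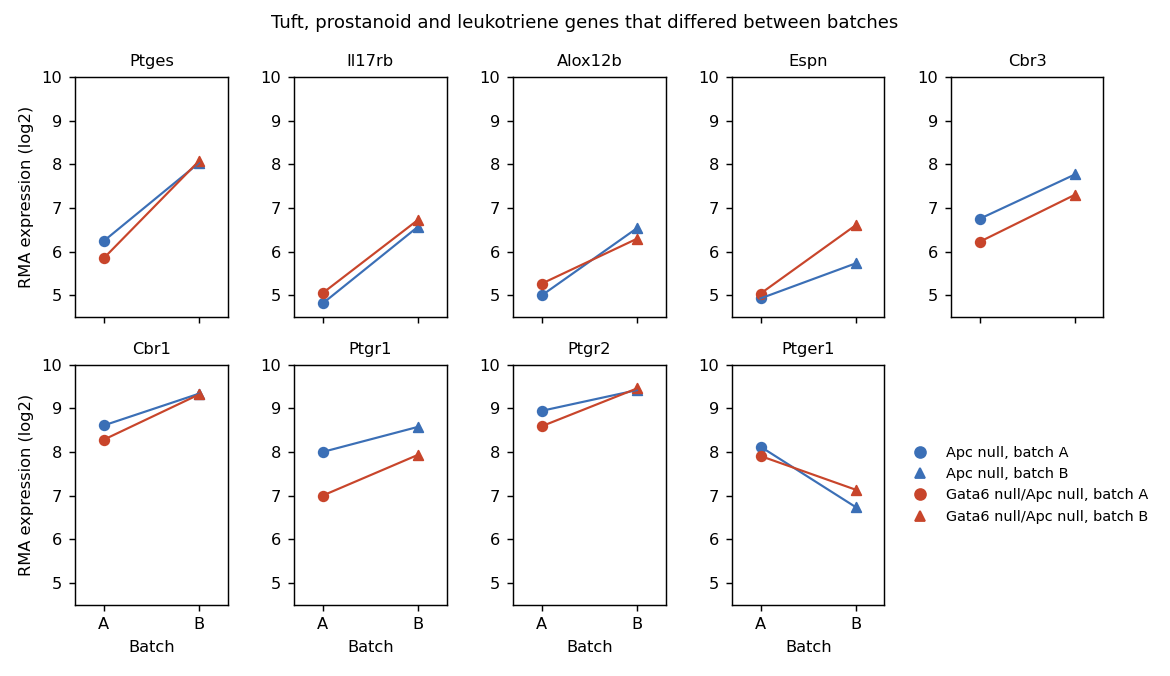
RMA expression in log2 units (y axis) in batch A and batch B (x axis) for the 9 genes of the tuft, prostanoid and leukotriene lists called between batches, with 1 point per array and a line joining the arrays of 1 genotype. Ptges and Il17rb have the steepest lines, and Ptger1 falls from batch A to batch B.

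Markers of other cells that express Hpgds, Alox5ap or Avil were read on the same arrays. The epithelial markers Epcam, Cdh1, Krt8, Krt18, Krt19, Vil1 and Cldn7 read 9.82 to 12.14, far above the filter. Of the other genes of that list, Cdx1 read 9.39 to 10.36 and Cdx2 7.29 to 9.41. Krt20, at 4.79 to 5.96, was closer to the filter level. Of 16 immune markers with a probe set 11 were below the filter, against 30.5% of all genes. The mean over the 16 was 4.16 and 4.27 in the Apc null arrays and 4.26 and 4.13 in the Gata6 null/Apc null arrays of batches A and B. The leukocyte marker Ptprc read 3.07 to 3.25. Mast cell markers were mixed. Kit, Cpa3 and Fcer1a read 3.31 to 3.86, while the proteases Cma1, at 6.76 to 7.47, and Tpsb2, at 4.71 to 5.27, were above the filter. The proteases Mcpt1 and Mcpt2 were below the filter and had their highest values, 4.34 and 4.19, in Gata6 null/Apc null A. Cma1 differed by -0.10 between genotypes (SE 0.36, limma adjusted p = 1.00) and Tpsb2 by 0.14 (SE 0.24, adjusted p = 1.00), and the part of such cells in the Hpgds difference was not tested. Cd68, a lysosomal glycoprotein of macrophages, read 5.92 and 4.94 in batch A against 7.57 and 7.23 in batch B. It differed by 1.97 between batches (limma adjusted p = 0.0115), in the same arrays as Ptges, and its part in the Ptges difference was not tested. Csf1r, also a macrophage marker, differed by 0.07 between batches (limma adjusted p = 0.790). The myeloid markers Adgre1, Itgam and Tyrobp were below the filter, at 3.33 to 3.92 over the 4 arrays. By genotype none of the 5 immune genes tested passed the limma threshold or an unadjusted p of 0.05, and the largest differences were -0.66 for Cd68 and 0.14 for Tpsb2.

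Of the fibroblast, endothelial and neuronal markers 7 of 9, 2 of 5 and 3 of 8 were below the filter, against 30.5% of all genes. None of the 10 genes tested was called by genotype. The largest differences in these lists were -0.13 for Pdgfrb and -0.06 for Dcn, 0.25 for Vwf and 0.15 for Pecam1, and 0.45 for Map2 and -0.28 for Tubb3. In limma 0 of the 10 had an unadjusted p under 0.05.

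Marker lists of other secretory cells of the epithelium had negative median differences. The goblet cell list had a median of -0.72 over 5 genes tested, and the list mean over 7 genes with a probe set was 7.66 and 7.19 in the Apc null arrays against 6.61 and 6.72 in the Gata6 null/Apc null arrays. No goblet gene passed by genotype, 2 had an unadjusted limma p under 0.05, and with the batch as a block 2 were called lower, Agr2 (-1.81, SE 0.33, adjusted p = 0.153, but 0.00349 in the blocked fit and up to 0.418 over the alternatives) and Atoh1 (-1.20, SE 0.51, adjusted p = 0.707, but 0.0309 in the blocked fit and up to 1.00 over the alternatives). Atoh1 encodes the transcription factor that starts the secretory fate. Its difference was -0.56 without Apc null A and -1.84 without Apc null B. The enteroendocrine list had a median of -0.45 over 6 genes, with none called and 1 at an unadjusted p under 0.05, and its largest differences were -0.59 for Neurog3 and -0.54 for Chgb. In the epithelial list the largest differences were -1.57 for the intestinal homeobox gene Cdx2 (SE 0.34, adjusted p = 0.228, but 0.00545 in the blocked fit and up to 0.594 over the alternatives) and -0.53 for Krt20, which was -0.08 without Gata6 null/Apc null B and -0.99 without Gata6 null/Apc null A. Over all genes 7.97% had an unadjusted limma p under 0.05 by genotype, and 2.97% were called lower in the blocked fit. None of these lists was set against the tuft list by a test.

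The labels were not checked by the targeted gene. The 2 Gata6 probe sets read 8.61 to 8.89 in the Apc null arrays and 9.11 to 9.40 in the Gata6 null/Apc null arrays, higher where the gene is labelled deleted, and their position relative to the deleted part is not known here. Every direction above rests on the labels. The 4 Apc probe sets read 6.47 to 8.35 over the 4 arrays. Array medians were 4.91 to 5.04 log2 units, and arrays of 1 batch correlated at 0.978 and 0.979 across probe sets, against 0.975 and 0.976 for arrays of 1 genotype.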

How the data were processed

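RNA of 4 organoid cultures was measured on 1 array each. The authors deposited a log2 signal for each probe set. The submitters' processing notes name RMA and affy, with no version. RMA removes array-wide shifts and compresses low values. Per the labels' protocols, RNA with an integrity number of at least 9 was amplified before labelling, which can change differences at dim probe sets. The number of arrays limits the precision, and the labels do not say whether replicates came from separate mice, so p-values measure the spread between these cultures.

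From 45141 probe sets 104 controls were removed. The platform annotation gave 1 gene to 28898, several to 551, from which none was named, and no gene to 15588. Each gene took the values of its brightest probe set over the 4 arrays, and genes under the 40th percentile of probe set means were left out. Groups were compared in limma 3.58.1 (R 4.3.3; lmFit, eBayes with trend) with genotype as the term, and batches in a fit with both terms, adjusted over all genes (Benjamini-Hochberg, 0.05, two-sided). The genotype fit had 2 residual degrees of freedom and the fit with both terms 1. The moderation, which draws on all genes, added 2.83 and 4.99 prior degrees of freedom. The batch letter in the labels pairs the arrays, and the batch differences of the groups correlated at 0.675 across genes. SDs are over 2 arrays, and SEs are those of the moderated fit.

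The genes and lists were chosen with earlier results of these data known. Named were the 10 genes, list genes past the threshold or else the 2 with the largest difference, and the 5 profiles nearest the listed gene with the widest range. Further names are said to be picked with values known, apart from marker levels and neighbours in the pathway given as background. Alternatives were the block, each array left out, no trend, other filters, other probe set rules, median centring and all probe sets. No per-sample column was left unused.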

Additional observations from a re-analysis of the deposited data

How the results depend on the processing

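The genotype count of 77 genes was 817 with the batch as a replicate block, 128 with arrays centred on their medians (103 higher and 25 lower, against 62 and 15) and 33 to 130 when an array was left out. Among the listed genes the count of 0 was 2 with the block and 1 with median centring. These calls rest on values known when the genes were chosen, so nothing is read from them. Centring subtracted a median difference of -0.01 log2 units between genotypes and of 0.07 between batches, so that it raised the former differences and lowered the latter by these amounts. The differences of Hpgds and Avil were 2.05 to 2.97 and 2.02 to 3.32 over the arrays left out. The batch count of 1977 genes was 873 without a trend, 4445 over all probe sets and 0 without genotype as a term, where the listed gene count of 1 became 0; it was 2 with median centring (Avil and Ptges). The batch fit could not be run with an array left out, as no residual degree of freedom remains. The tuft list count of 1 was 0 to 2 when an array was left out, 4 with the block and 3 with median centring. The causes were not tested. Over the alternatives, the genotype differences of listed genes moved by less than 1 SD, pooled over the groups, in 71 values. They moved by more in 1, Hpgd at 0.72 without shared-sequence probe sets. With 2 arrays per group, leaving out an array or adding the block could not move a difference by more than this SD. Those values are therefore no measure of stability. For Ptges the difference ran from -1.29 to 0.94 with an array left out. Signal over background limits what can be said of the 5 dim genes.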
